A study of Mus musculus and Mus spretus with 72 samples.

Results

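Meig1, Prm1, Prm2, Tnp1, Tnp2 and Odf1 are 6 genes that male germ cells use while a round spermatid is shaped into a sperm. They were taken by symbol from the probe gene table, where each had 1 probe, so 6 of the 22089 probes of the array and 6 of its 14386 gene symbols are described. All 6 probes carried a value on 24 of 24 arrays in testis, in brain and in liver/kidney, and none was lost to a filter.

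RNA of single male mice, about 12 weeks old, was hybridised on arrays with 2 channels against a pool of the same organ from 9 C57BL6 laboratory mice. In each organ the labels give 6 arrays of dom (Mus musculus domesticus), 6 of mus (Mus musculus musculus), 3 of cas (Mus musculus castaneus), 6 of ssp (Mus musculus with no sub-species named) and 3 of spretus (Mus spretus, a separate species). No treatment or engineered allele is named for any group. The brain array mus 08 is mus by its title but domesticus by its channel 2 label, and it was kept in mus. Each value below is a log2 ratio of mouse over pool, after subtracting the median of the array. The log base and the direction are not stated in the sources used here; mouse over pool is likely, because the pool is channel 1 and the mouse channel 2 on all 72 arrays. Were the direction inverted, every sign would turn. A ratio to a pool gives no level of its own, so levels could not be compared between genes or tissues, and the labelled tissue could not be checked by the level of its markers.

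While a round spermatid is shaped into a sperm, histones are first replaced by transition proteins (Tnp1, Tnp2). These are replaced in turn by protamines (Prm1, Prm2), small basic proteins that pack sperm DNA tightly. These mRNAs are made while the haploid genome is still active and are stored before they are translated. Odf1 encodes a main protein of the outer dense fibres that stiffen the sperm tail. Meig1 acts at the manchette, the microtubule skirt along which cargo moves to build the tail, and male mice without Meig1 are sterile.

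Prm1, Prm2 and Tnp2 lie side by side on chromosome 16 with Prm3 between Prm2 and Tnp2, while Meig1, Tnp1 and Odf1 lie alone on chromosomes 2, 1 and 15 (RefSeq gene table, GRCm38.p6). The 120 bases before the start of transcription are shown for 5 of the 6 genes, because several of these genes varied together between mice, as reported further on. The sequences come from RefSeq on GRCm38.p6, minus strand, with Meig1 at chr2:3422649-3422768 (the first of 3 listed starts), Prm1 at chr16:10796824-10796943, Prm2 at chr16:10792106-10792225, Tnp1 at chr1:73015900-73016019 and Tnp2 at chr16:10788656-10788775. Odf1 is named only. Capitals mark a match, on either strand, to TGACNTCA, a form of the cyclic AMP response element that the spermatid activator CREM binds, or to GGGCGG, the GC box.
Meig1: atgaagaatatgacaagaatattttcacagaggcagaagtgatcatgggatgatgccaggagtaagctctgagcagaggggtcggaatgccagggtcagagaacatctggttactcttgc
Prm1: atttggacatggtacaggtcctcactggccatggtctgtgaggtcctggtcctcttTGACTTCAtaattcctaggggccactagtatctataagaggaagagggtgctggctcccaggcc
Prm2: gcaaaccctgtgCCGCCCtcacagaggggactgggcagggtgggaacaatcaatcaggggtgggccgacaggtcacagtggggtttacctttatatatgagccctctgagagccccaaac
Tnp1: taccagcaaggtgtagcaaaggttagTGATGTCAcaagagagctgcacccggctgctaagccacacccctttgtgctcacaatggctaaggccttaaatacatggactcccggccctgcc
Tnp2: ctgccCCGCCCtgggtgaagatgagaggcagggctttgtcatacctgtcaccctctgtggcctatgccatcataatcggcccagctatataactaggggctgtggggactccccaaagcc

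The first base of the TGACNTCA match stood at -64 in Prm1 and at -94 in Tnp1, counted from the start of transcription. The GGGCGG match stood at -108 in Prm2 and -115 in Tnp2. Over 250 bases before the start, 7.49% of 32851 listed promoters held TGACNTCA and 32.74% held GGGCGG, and neither was found before the first Meig1 start. A match describes letters only and says nothing of binding in these mice. Whether genes that share a match vary together was not tested.

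The arrays fell into sets that lacked values at the same spots. In testis, set 1 held 5 dom, 4 mus and 6 ssp arrays, set 2 held all cas and spretus arrays with mus 07 and mus 08, and dom 01 belonged to neither. Each array had 42825 to 44832 values on 46128 spots. P-values come from limma, two-sided and adjusted by Benjamini-Hochberg over all probes tested in the tissue, and a probe counted as called at an adjusted p under 0.05. The p-values measure the spread between the mice of a group. In whole testis, fewer spermatids and less RNA per spermatid cannot be told apart, nor can a lower RNA level and a weaker match of a taxon's RNA to a probe.

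Meig1 differed most between the groups. It was highest in cas, next in ssp, near the C57BL6 pool in dom and mus, and lowest in spretus. Among all 5 groups, limma's F test called 1 of the 6 genes, Meig1 (adjusted p = 9.44e-07), against 4.29% of all 20754 probes tested.

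The 3 cas testes had Meig1 log2 ratios of 0.90, 1.08 and 1.24, a mean of 1.08 ± 0.17 (SD, n = 3), or 2.11 times the pool. In ssp the values ran from 0.13 through a median of 0.47 to 0.75, with a mean of 0.47 ± 0.24 (SD, n = 6). All 6 ssp mice stood above the pool, and the highest of them stood below the lowest cas mouse.

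In dom the Meig1 values ran from -0.30 through a median of -0.07 to 0.42, with a mean of -0.02 ± 0.25 (SD, n = 6). In mus they ran from -0.64 through -0.02 to 0.16, with a mean of -0.11 ± 0.30 (SD, n = 6). The 3 spretus testes had -1.16, -0.90 and -0.96, a mean of -1.005 ± 0.136 (SD, n = 3). No spretus value overlapped with any other group, and no cas value overlapped with any other group. The share of all probes that separate in this way was not counted.

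**Figure D1:**
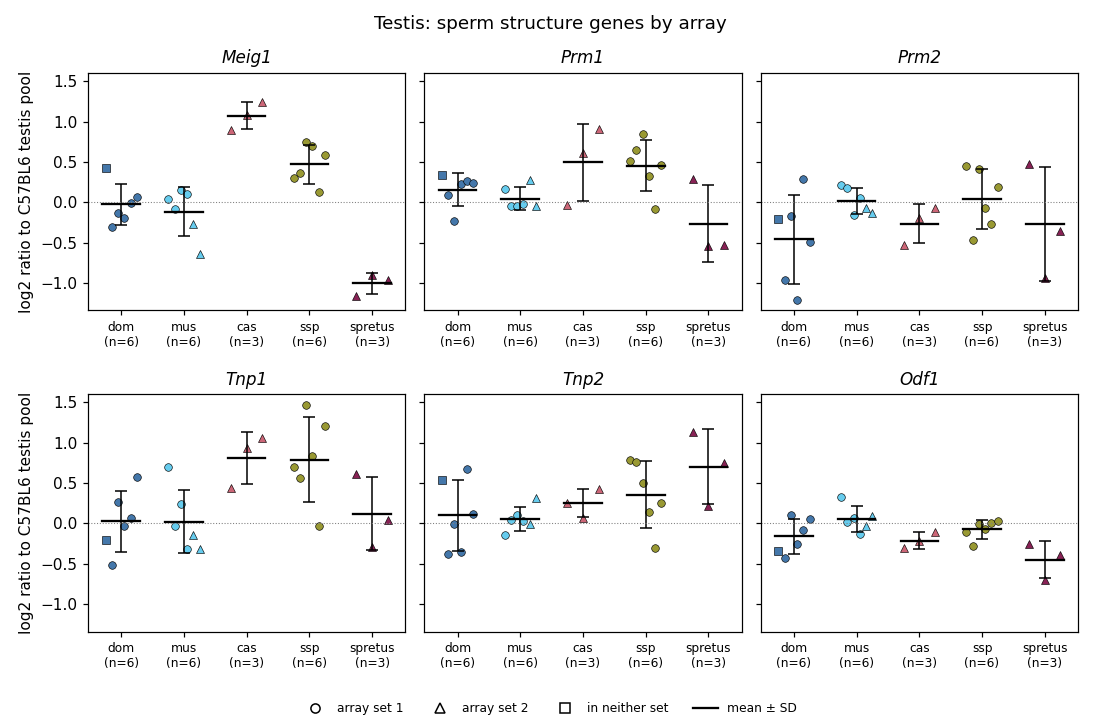
Log2 ratio to the C57BL6 testis pool (vertical axis) of each gene on 24 testis arrays, by group; each point is 1 mouse, its shape the set of arrays it belongs to, and bars give mean ± SD. For Meig1 the cas points (0.90 to 1.24) and the spretus points (-1.16 to -0.90) lie apart from every other group, while the groups of the other 5 genes overlap. The share of all probes with such a separation was not counted.

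Against the mean of dom and mus, Meig1 was 1.14 ± 0.15 higher in cas (log2, SE), a 2.21-fold difference with an adjusted p of 0.00218. It ranked 1 by p among 20754 probes, of which 4 were called (0.0193%). An exact two-sided permutation test over the arrays, with 455 splits, gave p = 0.0022, the smallest it can give. This is before any adjustment for the 36 tests of this kind, and the splits ignore the array sets. Meig1 was chosen with earlier results of these data known, so this p adds no independent support. The other 5 genes were not called in this comparison.

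Against the mean of the other 4 groups, Meig1 in spretus differed by -1.36 ± 0.14 (log2, SE), which is 2.56-fold lower (adjusted p = 7.65e-07). Here 9.42% of all probes were called, and 3 of the 6 genes, Meig1, Prm1 and Odf1, all lower. The exact two-sided permutation test with 2024 splits gave p = 0.000494 for Meig1, the smallest it can give. The calls of Meig1 in cas and spretus held without each array in turn, with adjusted p up to 0.0272 and 3.75e-05.

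Over the 10 pairs of groups, limma called Meig1 in 6. The widest gap was spretus minus cas, at -2.08 ± 0.19 (95% interval -2.47 to -1.69, 4.23-fold, adjusted p = 1.37e-07), where 2.96% of probes were called. With 3 mice against 3 the exact permutation test cannot go below p = 0.1, which is the value it gave. Spretus minus mus was -0.89 (adjusted p = 0.00114, 7.27% of probes called), spretus minus dom was -0.98 (adjusted p = 0.000366, 9.25%) and spretus minus ssp was -1.47 (adjusted p = 2.73e-06, 5.53%).

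Cas was above dom by 1.10 (adjusted p = 0.00903, 0.0289% of probes called) and above mus by 1.19 (adjusted p = 0.00512, 0.00964%). From lowest to highest the order of means was spretus, mus, dom, ssp and cas. The order of mus and dom turned within array set 1 (mus minus dom 0.17, adjusted p = 0.798). The neighbours mus and dom did not differ beyond their spread (mus minus dom -0.09 ± 0.13, 95% interval -0.37 to 0.19, adjusted p = 0.926).

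The neighbours dom and ssp also fell short of the threshold (ssp minus dom 0.49 ± 0.13, 95% interval 0.21 to 0.77, adjusted p = 0.375), in a comparison where 0% of probes were called. The difference ssp minus mus was 0.58 ± 0.13 (adjusted p = 0.388; 0% of probes called). For ssp and cas the values did not overlap, and the difference of -0.61 ± 0.16 (95% interval -0.95 to -0.26) had an adjusted p of 1, again with 0% of probes called. The intervals of these 3 differences lie away from 0, so a missed threshold does not show that the groups were alike.

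The cas and spretus arrays share a set, so Meig1 was compared within it. Set 2 holds no dom or ssp testis array. Differences of cas or spretus from dom or ssp thus cannot be told apart from the set. In set 2 the 2 mus arrays had Meig1 at -0.27 and -0.64, the lowest of the 6 mus arrays. Within set 2, cas minus mus was 1.53 ± 0.15 (adjusted p = 0.0404; 0.0142% of 21197 probes called) and spretus minus cas was -2.08 ± 0.13 (adjusted p = 0.00114; 1.21% called). Spretus minus mus was smaller there, -0.55 ± 0.15, and was not called (adjusted p = 0.139; 1.39% called). With the set as a fixed term, which leaves dom 01 without weight in the differences, cas stood 1.61 above dom and mus and spretus stood at -0.99 against the others, both called (adjusted p = 6.03e-05 and 0.000338). Only mus has arrays in both sets, so this fit takes the set difference from mus alone. It thus leans on the same 2 low mus arrays.

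Of the blood markers, the haemoglobin chain Hba-a1 had higher values in cas and ssp. The mean over 6 blood marker probes ran from 0.06 to 0.43 in cas, 0.04 to 0.17 in ssp and 0.06 to 0.10 in spretus, against -0.04 to 0.08 in dom and -0.04 to 0.04 in mus. Another haemoglobin probe, Hbb-b2, did not show this: it averaged 0.08 in cas and 0.06 in ssp against 0.08 in dom. The Hba-x probes averaged 0.05 and -0.01 in cas, but Hba-x is an embryonic chain and says little of adult blood. The median difference of the 6 probes in cas, Hba-x included, was 0.04. For Hba-a1, cas 01, 02 and 03 had 2.54, 0.70 and 0.18, while Meig1 in the same mice was 0.90, 1.08 and 1.24. None of the 6 blood probes was called in cas, where 0.0193% of all probes were called, too few for this count to say anything. The largest cas difference among the 6, that of Hba-a1, was 1.15. The part of blood in the Meig1 result was not tested.

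The array with cas 01 is also the lowest of the 3 for Meig1, Prm1, Prm2, Tnp1 and Odf1, and cas 03 is the highest of the 3 for all 6 genes. In spretus, mouse 01 was the highest and mouse 02 the lowest of the 3 for Prm1, Prm2, Tnp1, Tnp2 and Odf1, whereas mouse 01 was the lowest for Meig1.

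**Figure D2:**
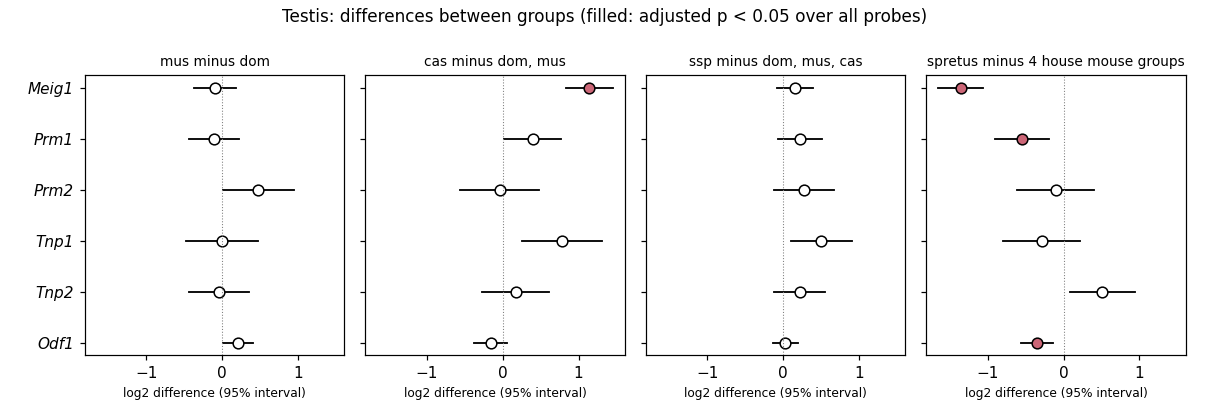
Differences between groups in testis on the log2 scale (horizontal axis) with 95% intervals from limma, for each gene and each of 4 comparisons; filled points had an adjusted p under 0.05 over all probes. Meig1 is filled in cas (1.14) and spretus (-1.36), and Prm1 (-0.55) and Odf1 (-0.35) only in the spretus comparison.

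Transition protein 1 had its highest values in cas and ssp, but no comparison passed the test. The 3 cas testes had Tnp1 ratios of 0.44, 0.93 and 1.06, with a mean of 0.81 ± 0.32 (SD, n = 3). In ssp they ran from -0.04 through 0.77 to 1.47, with a mean of 0.79 ± 0.53 (SD, n = 6). Dom, with 0.03 ± 0.38 (SD, n = 6), and mus, with 0.02 ± 0.39 (SD, n = 6), overlapped with both.

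Against dom and mus, Tnp1 was 0.78 ± 0.26 above in cas (adjusted p = 0.495, limma), with an exact permutation p of 0.00659 before any adjustment for the 36 tests of this kind. In ssp, against dom, mus and cas averaged, it was 0.50 ± 0.19 (adjusted p = 0.973), the largest of the 6 genes, and 0 of the 6 were called, as were 0% of all probes (1009 of 20754 had an unadjusted p under 0.05). In spretus the values of 0.61, -0.29 and 0.05 lay on both sides of the pool.

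Transition protein 2 was highest in spretus, at 1.14, 0.22 and 0.75, with a mean of 0.70 ± 0.46 (SD, n = 3). The next group was ssp, from -0.31 through 0.38 to 0.79, so the groups overlapped. Spretus minus the other groups was 0.51 ± 0.21, which was not called (adjusted p = 0.128). The same difference was -0.55 for Prm1 on the same chromosome.

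Protamine 1 fell in spretus by 0.55 ± 0.17 (adjusted p = 0.0469), on values of 0.28, -0.55 and -0.53. The first of these mice lay within the range of dom, and the other 2 lay below every mouse of the other groups. The call lay close to the threshold and was lost in 19 of the 24 fits that left out 1 array. In 17 of these, each without an array of another group, the difference stayed at -0.56 to -0.50 with adjusted p from 0.0516 to 0.0661. The other losses were -0.41 without spretus 02 (adjusted p = 0.348) and -0.42 without spretus 03 (adjusted p = 0.244). It was also lost with the array set as a random block (-0.57, adjusted p = 0.0712). Among the pairs, spretus minus ssp was called (-0.72 ± 0.20, adjusted p = 0.0327). All ssp testis arrays lay in set 1 and all spretus arrays in set 2, so this difference cannot be told apart from the set. Within set 2, limma called neither spretus minus mus (-0.38, adjusted p = 0.636) nor spretus minus cas (-0.76, adjusted p = 0.298).

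In the other groups Prm1 ran from -0.03 to 0.91 in cas, -0.09 to 0.84 in ssp, -0.23 to 0.34 in dom and -0.05 to 0.27 in mus. Cas minus dom and mus averaged was 0.40 ± 0.18 (adjusted p = 0.754). These 4 groups overlapped.

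Protamine 2 was called in none of the comparisons, and its values spread widely within dom and within spretus. The 6 dom testes ran from -1.21 through a median of -0.35 to 0.29 (SD 0.55), while the 6 mus testes ran from -0.16 to 0.21 (SD 0.16). Mus minus dom was 0.47 ± 0.23 (adjusted p = 0.755), in a comparison with 0 of 6 genes and 0% of probes called (1367 had an unadjusted p under 0.05). The 3 spretus values were 0.47, -0.93 and -0.35, and all 5 groups overlapped. Prm3, between Prm2 and Tnp2 on the chromosome, differed by 0.04 ± 0.11 in spretus and was not called.

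Odf1 fell in spretus by 0.35 ± 0.10 (adjusted p = 0.0304), on values of -0.26, -0.70 and -0.39. All 3 were below the pool, but dom reached down to -0.43 and cas to -0.31, so the groups overlapped. Without spretus 02 the difference was -0.23 (adjusted p = 0.352), without spretus 03 it was -0.39 (adjusted p = 0.0571), and with the array set as a random block it was -0.34 (adjusted p = 0.0677). Spretus minus mus was called (-0.51 ± 0.12, adjusted p = 0.0085). Spretus minus dom (-0.29 ± 0.12, adjusted p = 0.117) was not. Within array set 2, spretus minus mus was -0.48 ± 0.14 (adjusted p = 0.157, limma) and was not called.

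Over all 6 genes and 10 pairs, 8 of 60 differences were called, 6 of them for Meig1 and none for Prm2, Tnp1 or Tnp2. Over the same pairs 2.51% of the 207540 differences of all probes were called, most of them in the 4 pairs with spretus. These pairs share groups and are not independent.

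Brain and liver/kidney, which hold no spermatids, gave the background. In brain 0 of the 6 genes were called in any of the 4 comparisons, beside 0.223%, 0.0097%, 0.097% and 3.95% of all probes for mus, cas, ssp and spretus in that order. In liver/kidney 0 of 6 were called too, beside 0.591%, 1.11%, 0.0436% and 7.49%. At an unadjusted p under 0.05 in the spretus comparison, Meig1 stood at -0.26 ± 0.09 (adjusted p = 0.101) and Tnp2 at -0.26 ± 0.12 (adjusted p = 0.204) in brain, and Odf1 at -0.26 ± 0.09 in liver/kidney (adjusted p = 0.0628). Odf1 in brain lay just past that limit, at -0.28 ± 0.14 (limma, unadjusted p = 0.0524, adjusted p = 0.267). Its spretus difference was thus of like size in these organs and in testis (-0.35).

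Meig1 ratios in brain ran from 0.02 to 0.21 in cas and from -0.18 to -0.08 in spretus. In liver/kidney they ran from -0.20 to 0.08 in cas and from -0.22 to 0.33 in spretus. In neither organ did the cas or spretus mice reach the distance from the pool seen in testis.

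**Figure D3:**
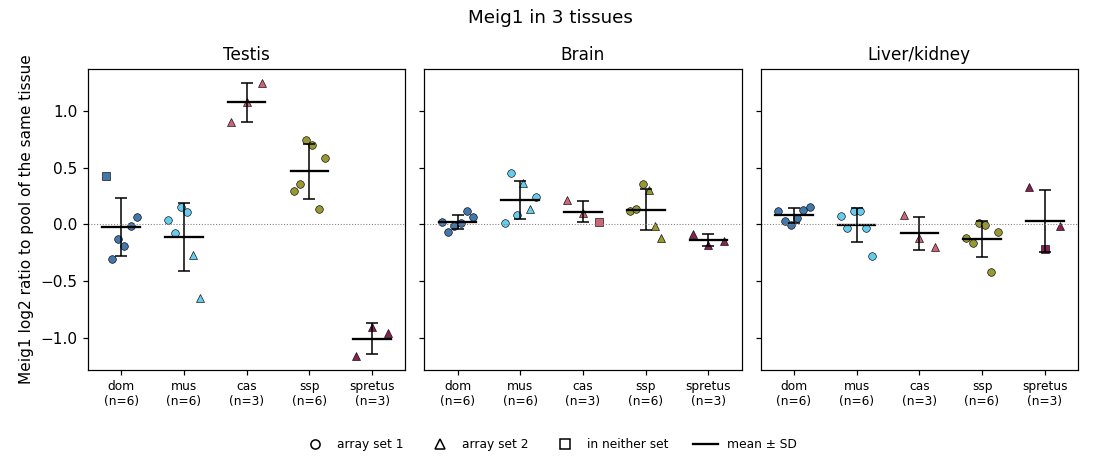
Meig1 log2 ratio to the pool of the same tissue (vertical axis) in testis, brain and liver/kidney, by group; each point is 1 mouse, with mean ± SD. In testis cas lies at 0.90 to 1.24 and spretus at -1.16 to -0.90, while in the other organs all points lie between -0.42 and 0.46.

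The difference between organs was tested in 1 limma model with the animal as a block, taking equal group names and numbers as 1 male. For Meig1 the cas difference was larger in testis than in brain by 1.15 ± 0.17 (adjusted p = 5.02e-05; 0.0437% of 20589 probes called) and than in liver/kidney by 1.26 ± 0.17 (adjusted p = 3.56e-06; 0.398% called). For the spretus difference, testis minus brain was -1.10 ± 0.16 (adjusted p = 1.22e-06; 2.96% called) and testis minus liver/kidney was -1.42 ± 0.16 (adjusted p = 6.51e-10; 5.98% called).

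Tnp2 was the other member called in this test. Its spretus difference was 0.77 ± 0.22 higher in testis than in brain (adjusted p = 0.038), where testis stood at 0.51 and brain at -0.26, and 0.68 ± 0.22 higher than in liver/kidney (adjusted p = 0.0565). For Prm1 and Odf1 the spretus difference was not shown to depend on the organ: testis minus brain was -0.54 ± 0.21 for Prm1 (adjusted p = 0.182) and -0.07 ± 0.16 for Odf1 (adjusted p = 0.942). Testis minus liver/kidney was -0.42 ± 0.21 for Prm1 (adjusted p = 0.278) and -0.09 ± 0.16 for Odf1 (adjusted p = 0.857).

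Mice of 1 group differed more in the DNA packing genes than in most probes. The SD between mice of a group in testis was 0.43 for Tnp1 and 0.43 for Prm2, each larger than that of 98.3% of probes, 0.36 for Tnp2 (96.6%), 0.30 for Prm1 (92.3%) and 0.25 for Meig1 (83.8%). Odf1, with 0.17, was near the median of all probes, 0.15. Duplicate spots of Prm2, Tnp1 and Tnp2 differed by a median of 0.05, 0.06 and 0.06 on an array, against 0.07 for all probes. The spread of these genes thus lay between arrays and not between spots. For Prm1 the median was 0.11, above that of all probes. In brain the SD of Prm2 was 0.21, larger than that of 69.8% of probes, and that of Tnp1 0.27 (87.0%). The Tnp1 SD was 0.14 without cas 03, whose duplicate Tnp1 spots stood at -0.22 and 2.67. In liver/kidney the SD was 0.25 for Prm2 (83.9%), 0.12 for Tnp1 (21.1%) and 0.22 for Prm1 (74.2%), the last falling to 0.13 without spretus 03. No testis SD of the 6 genes changed by over 1.5 times when 1 array was left out.

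**Figure D4:**
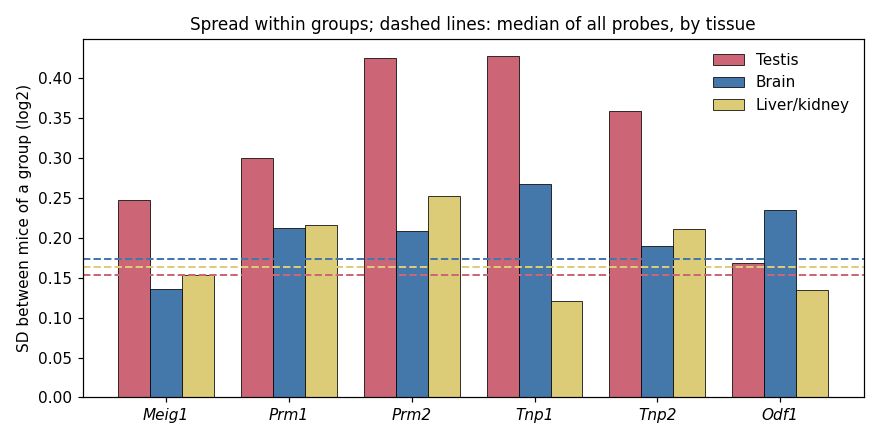
Pooled SD between mice of a group (vertical axis, log2) for each gene in 3 tissues; dashed lines give the median SD of all probes of each tissue. Testis bars of Prm2 (0.43), Tnp1 (0.43) and Tnp2 (0.36) stand well above the testis line at 0.15, and Odf1 (0.17) close to it.

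Part of that spread was shared between genes. After the group means were subtracted, the 24 testis arrays gave 15 correlations between pairs of the 6 genes, tested by 100000 permutations within groups and adjusted over the 15. Tnp1 and Odf1 had the highest (r = 0.70, permutation p = 0.00039, adjusted 0.00585; rho = 0.73, p = 0.00034, adjusted 0.0051). Without the 2 arrays farthest from the median of Tnp1, r was 0.88, and it was 0.66 within array set 1 and 0.80 within set 2.

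Prm2 and Tnp2, both on chromosome 16 with Prm3 between them, had r = 0.66 (permutation p = 0.0109, adjusted 0.0418) and rho = 0.56 (p = 0.026, adjusted 0.0742), with r = 0.54 without the 2 farthest arrays, 0.60 in set 1 and 0.80 in set 2. Prm1 and Tnp1 had r = 0.58 (permutation p = 0.00885, adjusted 0.0418) and rho = 0.51 (p = 0.0297, adjusted 0.0742), with r = 0.42 without the 2 farthest arrays, 0.56 in set 1 and 0.85 in set 2. Prm2 and Tnp1 had r = 0.55 (permutation p = 0.0111, adjusted 0.0418) and rho = 0.61 (p = 0.00566, adjusted 0.0424), with r = 0.65 without the 2 farthest arrays, 0.46 in set 1 and 0.93 in set 2.

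The other 11 pairs did not pass, among them the adjacent genes Prm1 and Prm2 (r = 0.45, adjusted permutation p = 0.131), and Meig1 was in none of the pairs that did. For Meig1 the highest was with Tnp1 (r = 0.46, adjusted permutation p = 0.0887) and the lowest with Odf1 (r = 0.01). All 24 arrays share 1 pool as their reference. The share of all pairs of probes with an r this high was not counted. These correlations therefore cannot be called particular to these genes.

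**Figure D5:**
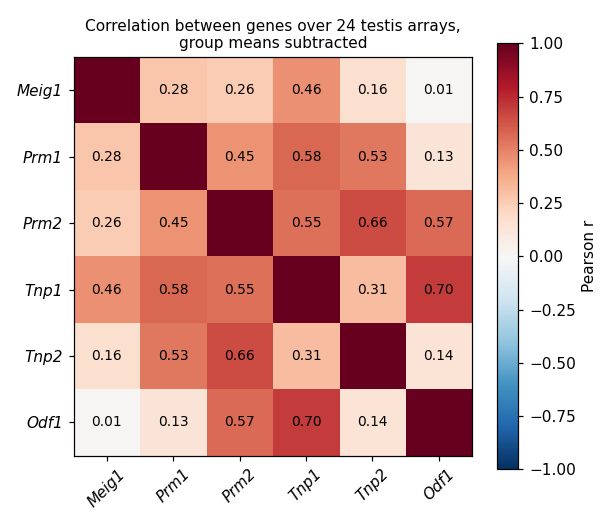
Pearson r between each pair of genes over 24 testis arrays after subtracting group means; colour and number give r. Tnp1 with Odf1 (0.70) and Prm2 with Tnp2 (0.66) are the highest, and Meig1 with Odf1 (0.01) is the lowest. The share of all pairs of probes with an r this high was not counted.

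The named probes most like each gene over the 24 testis arrays, group differences included, were sought among 14258 probes and are a description. For Meig1 they were Prpf40b, a splicing factor (r = 0.84), Rps25, a protein of the small ribosomal subunit (r = 0.82), and 1700019M22Rik (r = 0.82). For Prm1 they were Fam24a (0.78), 1700019M22Rik (0.76) and 4931429L15Rik (0.74), and for Tnp1 4921513H07Rik (0.83), 2810032G03Rik (0.80) and 1700019M22Rik (0.79). The RIKEN clone 1700019M22Rik thus stood in 3 of the lists, and none of the 6 genes was among the 3 nearest of another. For Prm2 they were Ntsr1 (0.80), Fastkd2 (0.80) and 4930405D01Rik (0.79), for Tnp2 Gpr137b-ps (0.80), 1700021F07Rik (0.79) and Nsmf (0.78), and for Odf1 4930527F14Rik (0.80), 1700123O12Rik (0.79) and Akt2 (0.77).

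Other genes of sperm formation were read against the share of all probes called, which was 0% in mus, 0.0193% in cas and 0% in ssp, too low for a count of 0 to say anything of a list. Of 23 probes for chromatin condensation and haploid gene control, 26 for the flagellum, 15 for the manchette and its cargo transport and 11 for the acrosome, 0 were called in the mus, cas or ssp comparison, and the cas medians of the 4 lists lay between -0.03 and 0.03, against 0.00 for all probes. In spretus 1 of 23, 5 of 26, 1 of 15 and 1 of 11 were called, beside the 9.42% of all probes, with list medians of 0.00, 0.00, 0.04 and -0.04 against 0.01.

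Of the 5 flagellum genes called in spretus, 4 fell and 1 rose. Ldhc, the lactate dehydrogenase of germ cells, fell by 1.03 ± 0.18 (adjusted p = 0.00038), Ropn1l, a protein of the flagellum, by 0.99 ± 0.14 (adjusted p = 3.63e-05) and Tcte3, a dynein light chain, by 0.68 ± 0.14 (adjusted p = 0.0038). Odf2, another outer dense fibre protein, differed by -0.23 ± 0.17 (adjusted p = 0.468). In the manchette list, Spag16, which binds Meig1, differed by 0.19 ± 0.06 in spretus (adjusted p = 0.061) and 0.07 ± 0.06 in cas (adjusted p = 1).

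The single calls of the remaining lists came from genes with a second probe that did not follow. Elavl1, which binds mRNA, rose by 0.63 on 1 probe and stood at 0.03 on the other, Gopc, needed for the acrosome, at -0.49 and -0.04, and Clip1, a microtubule end protein, at -0.38 and 0.00. Crem, the activator of haploid genes, stood at 0.06 ± 0.08 in cas and -0.09 ± 0.08 in spretus and was not called.

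Markers of other cells of the testis were read the same way. In cas, 0 of 12 spermatocyte, 0 of 9 spermatogonium, 0 of 11 Sertoli, 0 of 6 Leydig and 0 of 7 peritubular and vascular probes were called, beside 0.0193% of all probes. In spretus, where 9.42% of all probes were called, 3 of 11 Sertoli probes were called (Sox9 at 0.30, Clu at 0.65 and -0.63 on its 2 probes), 1 of 7 peritubular and vascular probes (Myh11, a smooth muscle myosin, at 1.08) and 1 of 6 liver and kidney probes (Umod at 0.24). The peritubular list mean was 0.05 to 0.21 in spretus, against -0.17 to 0.08 over the other groups, but its median difference over 7 probes was -0.02, and Myh11 alone stood that high. For spermatocytes, spermatogonia, Leydig cells, blood, epididymis and brain 0 probes were called in spretus. Their part in the spretus differences of Meig1, Prm1 and Odf1 was not tested.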

How the data were processed

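Testis, brain and liver/kidney RNA of single males was compared with an organ pool on 72 arrays with 2 channels. The deposited values are log ratios made by the authors, taken here as log2; values ran from -5.714 to 5.772, and how they were scanned and normalised is not given in the sources used here. Deposited array medians lay between -0.045 and 0.055. Groups and numbers came from the titles.

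Duplicate spots were averaged (22320 pairs; 232 Gapdh pairs became 1 probe), and each array was centred on its median. In R 4.3.3 (with version 1.17.8 of data.table), lmFit and eBayes of limma 3.58.1 were run on probes with at least 2 values in every group, with 1 coefficient per group and all 5 groups of a tissue in the fit, without the replicate number as a block. The comparisons were mus minus dom, then cas, ssp and spretus each minus the mean of the groups before it, the 10 pairs, an F test, and the difference between organs with the animal as a block. Exact tests permuted arrays. Python 3.11.15 with numpy 2.4.6, scipy 1.17.1, pandas 2.3.3 and matplotlib 3.10.9 did the rest. The limma step was tested on simulated data. Correlations between testis arrays over all probes ran from -0.257 to 0.454. The number of arrays limits the precision.

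Genes named are the 6 members, up to 3 called members of each list per comparison by smallest p, and the 3 most similar named probes of each member; Prm3, Odf2, Spag16, Crem and Hba-a1 were chosen after their values were seen. The members and lists were chosen with earlier results of these data known. Replicate numbers did not pair the mice: residuals of arrays with the same number in other groups correlated with a median r of -0.04, against -0.004 for other numbers. Alternatives were uncentred values, quantile normalisation, array weights, array set (fixed term, random block or within set), replicate block, single spots, trend and robust variance, complete probes, only the groups compared, and leaving out each array, the last also for the spread within groups, which was added after seeing the data.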

Additional observations from a re-analysis of the deposited data

Results flagged for a closer look

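Of 54 sets, each the values of 1 gene in 1 group of 6 mice, 8 had a single mouse far from the other 5. These lay in brain or liver/kidney only. Chance flags about 1 in 20 independent sets, but the same arrays recur over the 6 genes, so these sets are not independent. In brain, mus 08, whose title and channel label disagree, was lowest for Prm1 (-0.21), Prm2 (-0.22) and Tnp1 (-0.20). Dom 01 was lowest for Prm1 (-0.61) and Tnp2 (-0.41) in brain, and dom 05 highest for Tnp1 (0.42). In liver/kidney, mus 08 was lowest for Meig1 (-0.28) and dom 13 highest for Tnp1 (0.19).

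A difference between groups that itself differed between organs was found for Meig1 in cas, by 1.15 (testis minus brain) and 1.26 (testis minus liver/kidney), and in spretus, by -1.10 and -1.42. For Tnp2 in spretus it was 0.77 (testis minus brain).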

How the results depend on the processing

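Of 407 alternative counts of called members, 391 stayed within 1.5 times the main count. Most of these counts belong to comparisons with no member called in the main fit, which could hardly move. A fall from 3 calls to 2 also lies within 1.5 times, so the total says little of single calls. In spretus testis the 3 calls became 1 with quantile normalisation, with the array set as a fixed term or a random block, and with the first spot of each pair alone, and 0 (spretus minus mus) and 1 (spretus minus cas) within array set 2. Leaving out 1 array gave 1 to 3, with 1 without spretus 02 or spretus 03. When 1 array was left out, the F test gave 1 to 3 (over 1 without cas 01, dom 13, mus 02, ssp 05 or spretus 01) and the liver/kidney spretus comparison 0 to 2 (over 0 without cas 03, mus 08 or spretus 01). With the replicate block the testis counts were 1 in cas and 3 in spretus, and no call changed. Meig1 kept both calls in all alternatives run over all arrays or without 1, from 1.06 to 1.61 in cas and from -1.42 to -0.99 in spretus. Prm1 lost its call in 5 and Odf1 in 4 of 10 settings other than leaving out an array. No called value changed sign. The array set could not be fitted as a fixed term in liver/kidney. The causes were not tested. With 3 cas and 3 spretus mice, small differences could not be seen.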
